A study of Mus musculus with 12 samples.

Results

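Cells of the skin are held to each other and to the matrix below them by a small number of junction types, and 81 genes named after their parts were followed here through 12 mouse skin libraries. The members were all genes whose symbol begins with the letters of the claudin, zonula occludens (Tjp), occludin, desmocollin, desmoglein, desmoplakin, plakophilin, plakoglobin, cadherin, protocadherin, catenin, connexin, integrin, nectin, Perp or envoplakin names. They numbered 81 of the 7902 genes in the tables, listed there by 121 of 10720 transcripts, and all 81 passed the filter on low counts. Sorted by the structure each protein is known for, they comprised 15 desmosome genes, 18 tight junction genes, 12 adherens junction genes, 9 connexins of gap junctions, 12 integrins, 6 other cadherins and 5 protocadherins. A further 4 (Ctnnbip1, Ctnnbl1, Itgb1bp1 and Itgb1bp2) match the letters of the names but are not themselves junction catenins or integrin subunits.

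The skin samples fell into 3 groups of 4 libraries. Ctrl was control skin, Model was skin aged by giving D-galactose and exposing it to UVA/B light, and M+NSPCC1 was the same ageing model treated with NSPCC1, an extract of grape seed. D-galactose, a sugar, is used in excess in rodents to speed ageing through oxidative damage. The sources used here do not give strain, sex, age, body site, doses or times. They do not say either whether the 4 samples of a group are different mice, and p-values therefore cover only the spread among samples, part of which may be technical.

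Desmosomes are rivets that tie the keratin filaments of neighbouring epithelial cells together, and they are most abundant in epidermis and hair follicle. Adherens junctions couple cadherins to actin through catenins, tight junctions seal the space between cells with claudins, and gap junctions are channels of connexins through which small molecules pass. Integrins are pairs of an alpha and a beta subunit that bind matrix or, in blood cells, other cells. Most of these families have separate members for epithelium, vessel wall, nerve, muscle and leukocytes, so that whole skin reads many cell types at once. In bulk tissue, fewer cells of a type and less RNA per cell cannot be told apart.

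The summed estimated counts ran from 9717338 to 10952623 per library. The labelled tissue could be checked on keratinocyte genes, since the basal markers Krt5 and Trp63 together reached 2467 to 3027 CPM (counts scaled to a common library size) in Ctrl, 3765 to 6209 in Model and 3135 to 5075 in M+NSPCC1 libraries. Model 03 lay closest to Ctrl in several marker sums, both non-epithelial ones and those of growing follicle and suprabasal epidermis. In the basal sum it lay farthest from Ctrl. The sums are given below with the members they move with. The tables hold mostly genes that differ from Ctrl: 90.5% of the 7638 genes tested passed in Model against Ctrl (edgeR's quasi-likelihood test, Benjamini-Hochberg adjusted p under 0.05), 49.1% higher and 41.4% lower. Each count of members below has to be read against those shares.

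In Model skin every listed desmosome gene rose and most listed integrins fell, while the other classes held genes that rose and genes that fell. Of the 81 members, 49 rose, 28 fell and 4 (Cdh4, Itga8, Itga2 and Itgb6) did not pass. The median log2 fold change was 1.04, against 0.255 over all genes tested. Together the members made up 0.809% to 0.959% of the summed count in Ctrl libraries, 2.25% to 2.62% in Model and 2.19% to 2.37% in M+NSPCC1 libraries, and neither range from the ageing model overlapped that of Ctrl. The 4 and 4 libraries did not overlap for 75 members, or 92.6%, where the share over all genes was 83.1%. With DESeq2's size factors in place of TMM the median over all genes moved from 0.255 to 0.083 and 47 members rose and 28 fell, with no change of a class's direction.

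**Figure D1:**
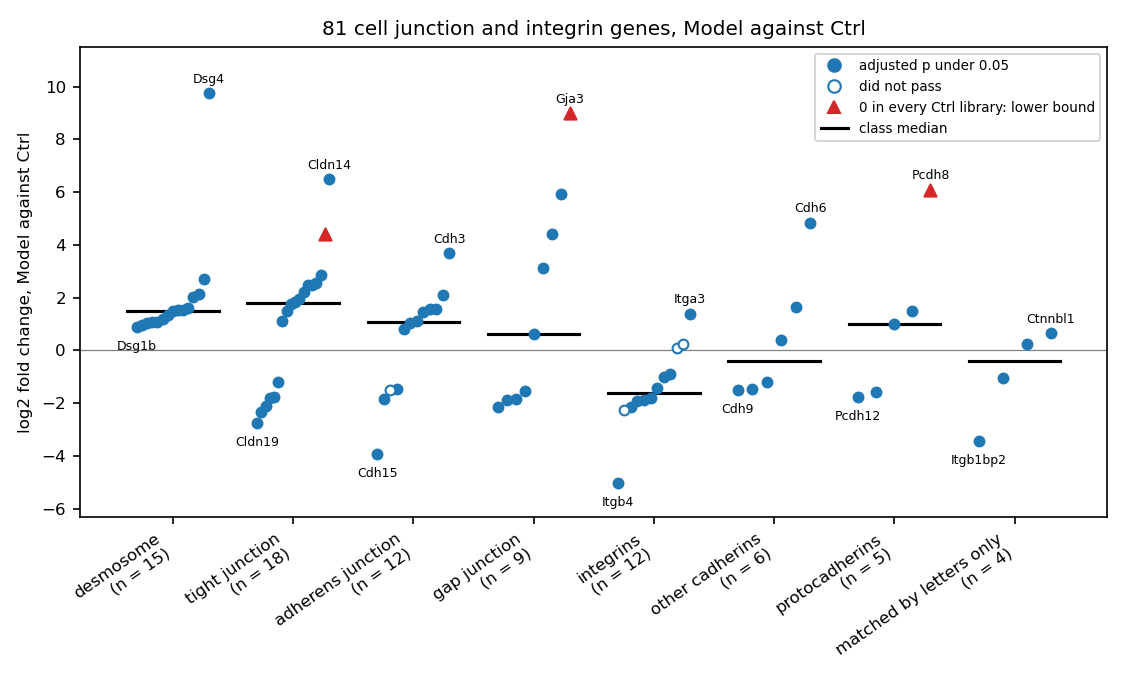
Each point is 1 of the 81 members, placed by its log2 fold change in Model against Ctrl (vertical axis) within its junction class (horizontal axis); black bars are class medians and triangles are lower bounds for genes with no count in any Ctrl library. All 15 desmosome genes lie above 0, while 9 of 12 integrins lie below it.

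Every desmosome gene measured was higher in Model skin. All 15 rose, with log2 fold changes from 0.89 (Dsg1b) to 9.74 (Dsg4) and a median of 1.51, and all 15 had groups that did not overlap. The desmogleins and desmocollins are the cadherins of the desmosome, which meet their partners in the gap between cells. Dsg4, the desmoglein of the hair shaft cortex and cuticle, was at 0.111, 0.331, 0.215 and 0 CPM in Ctrl libraries 01 to 04. In the Model libraries it stood at 127.7, 200.5, 120.3 and 152.1 CPM, and in M+NSPCC1 at 85.8, 138.9, 171.3 and 145.4 CPM. All Ctrl libraries were close to 0 and none overlapped the other groups, and the log2 fold change in Model against Ctrl was 9.74 (standard error 0.43, adjusted p = 1.93e-08).

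The other desmosomal cadherins changed less. Dsc2, the most widely expressed desmocollin, had 8.958, 10.82, 9.554 and 10.36 CPM in Ctrl and 63.26, 62.46, 63.0 and 69.53 CPM in Model libraries. It rose by a log2 fold change of 2.70 (standard error 0.12, adjusted p = 1.93e-08). Dsg2, which is expressed in simple epithelia and in proliferating keratinocytes, rose by 2.16. Dsc1 and Dsg1b, known from the upper epidermal layers, rose by 1.52 and 0.89, while Dsg3 and Dsc3, found mainly in the lower layers, rose by 1.51 and 1.04. Of 3 suprabasal markers outside the members (Krt10, Krtdap and Flg), 2 fell and 1 rose, and their sum, given below, was lower in Model. Dsg1c, at 1.086 CPM on average in Ctrl, rose by 1.60. The desmogleins and desmocollins are neighbours on chromosome 18 and resemble each other, so how reads were shared between Dsg1b and Dsg1c is uncertain.

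Among the desmogleins listed, the composition changed along with the level. Dsg1a is not among them, and the shares given for any family here cover only its listed members. On the FPKM scale, which divides by transcript length and so allows genes to be compared, the 5 desmogleins summed to 23.3 ± 2.70 in Ctrl, 88.5 ± 5.38 in Model and 84.3 ± 3.93 in M+NSPCC1 (SD, n = 4 each). Dsg1b supplied 68.0% of that sum in Ctrl and 37.2% in Model. Dsg4 went from 0.112% ± 0.104 in Ctrl to 31.4% ± 5.98 in Model and 30.9% ± 8.47 in M+NSPCC1, so that it came second to Dsg1b in the means of both ageing groups. Desmocollins kept Dsc3 as the main member, at 76.6% of their FPKM in Ctrl and 67.8% in Model.

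The plaque proteins, which link those cadherins to keratin, rose more evenly. Dsp, the desmoplakin that grips the keratin filaments, went from 1134 ± 165 CPM in Ctrl to 3265 ± 255 in Model (SD, n = 4 each), a log2 fold change of 1.53 (standard error 0.11). Jup (plakoglobin) rose by 1.07, Pkp1 by 1.17 and Pkp2 by 0.98. Pkp3, the plakophilin present in nearly all epithelial desmosomes, rose by 2.02 and with it its share of the plakophilin FPKM, from 33.4% ± 1.16 in Ctrl to 47.7% ± 3.35 in Model (SD, n = 4). Perp, a membrane protein of epidermal desmosomes, rose by 1.07 and had the highest FPKM of all members, at 538.1 in Ctrl and 1277 in Model. Evpl, the envoplakin of the cornified envelope, counted here with the desmosome, rose by 1.33.

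Tight junction genes went both ways, most of them up. Of 18 members 12 rose and 6 fell, with a median log2 fold change of 1.80. Cldn4, a claudin of barrier epithelia, was at 53.31, 47.27, 54.85 and 54.72 CPM in the Ctrl and at 290.8, 332.7, 252.6 and 311.3 CPM in the Model libraries, with no overlap. Its log2 fold change was 2.498 (standard error 0.11, adjusted p = 1.93e-08). Cldn1, the claudin on which the epidermal water barrier depends, rose by 1.76, from 214.5 to 724.1 CPM on average. Cldn3 rose by 2.57, Cldn8 by 2.84, Cldn10 by 2.47, Cldn12 by 1.48 and Cldn14 by 6.48. Cldn7, at 0.405 CPM on average in Ctrl and 1.909 in Model, rose by 2.198 with groups that overlapped. Cldn17 had no count in any Ctrl library and 1.751 CPM on average in Model, which makes it at least 21.4-fold higher (bound from 3 counts over the Ctrl group).

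Scaffold genes went both ways. Tjp1, a zonula occludens scaffold that ties claudins to actin, rose by a log2 fold change of 1.11, from 59.6 to 128.8 CPM on average, and Ocln, which encodes occludin, by 1.84. Tjp3, a relative of Tjp1, fell by 1.77 on the log2 scale, from 38.67 to 11.32 CPM.

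The other 5 tight junction genes that fell were claudins. Cldn5, the claudin of blood vessel endothelium, had 59.17, 69.69, 59.58 and 53.86 CPM in Ctrl and 17.71, 10.1, 28.67 and 13.42 CPM in Model libraries, of which Model 03 was the highest. It fell by 1.79 on the log2 scale (standard error 0.26, adjusted p = 6.33e-05). Cldn19, known from Schwann cells, fell by 2.75, Cldn11, known from myelin, by 2.35, Cldn22 by 2.09 and Cldn23 by 1.19. By FPKM, Cldn5 made up 24.3% ± 3.19 of the 14 claudins in Ctrl and 2.65% ± 1.5 in Model, while Cldn4 went from 15.4% ± 1.15 to 31.8% ± 1.46 (SD, n = 4).

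Most adherens junction genes rose. Of 12 members 8 rose and 3 fell. Cdh3 (P-cadherin), the cadherin of basal keratinocytes and hair matrix, was at 22.01, 21.98, 22.01 and 23.85 CPM in the Ctrl libraries. In Model it was at 280.6, 322.4, 215.4 and 342.1 CPM and in M+NSPCC1 at 303.2, 264.4, 268.8 and 306 CPM. All 8 libraries of the ageing model were far above the 4 of Ctrl, and the log2 fold change in Model against Ctrl was 3.69 (standard error 0.14, adjusted p = 1.28e-08). Cdh1 (E-cadherin), its neighbour on chromosome 8 and the main cadherin of epithelium, rose by 1.46.

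Beneath the membrane, Ctnnb1 (beta-catenin) rose by a log2 fold change of 1.12 and Ctnnd1 (p120-catenin), which stabilises cadherins at the surface, by 1.04. The nectins, adhesion proteins that start the contact between cells, rose as well: Nectin1 by 1.56, Nectin2 by 1.57 and Nectin4 by 2.11. Pkp4, a plakophilin relative found at adherens junctions, rose by 0.81.

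Against these stood Cdh5 (VE-cadherin), the adherens cadherin of endothelium. It had 204.3, 211.5, 217.9 and 191.6 CPM in Ctrl and 56.82, 37.72, 90.69 and 42.41 CPM in Model libraries. It fell by 1.86 on the log2 scale (standard error 0.25, adjusted p = 2.85e-05), again with Model 03 as the highest Model library. Cdh15 (M-cadherin), which joins muscle precursor cells, fell by 3.91, and Cdh2 (N-cadherin) by 1.47. Among the type I cadherins Cdh15 supplied 14% of the FPKM in Ctrl and 0.315% in Model, and Cdh3 8.53% in Ctrl and 35.1% in Model. Cdh4 (R-cadherin) was low in Ctrl (2.651 to 7.729 CPM) and at 0 in 2 Model libraries. It did not pass in Model against Ctrl (log2 fold change -1.51; adjusted p = 0.244).

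**Figure D2:**
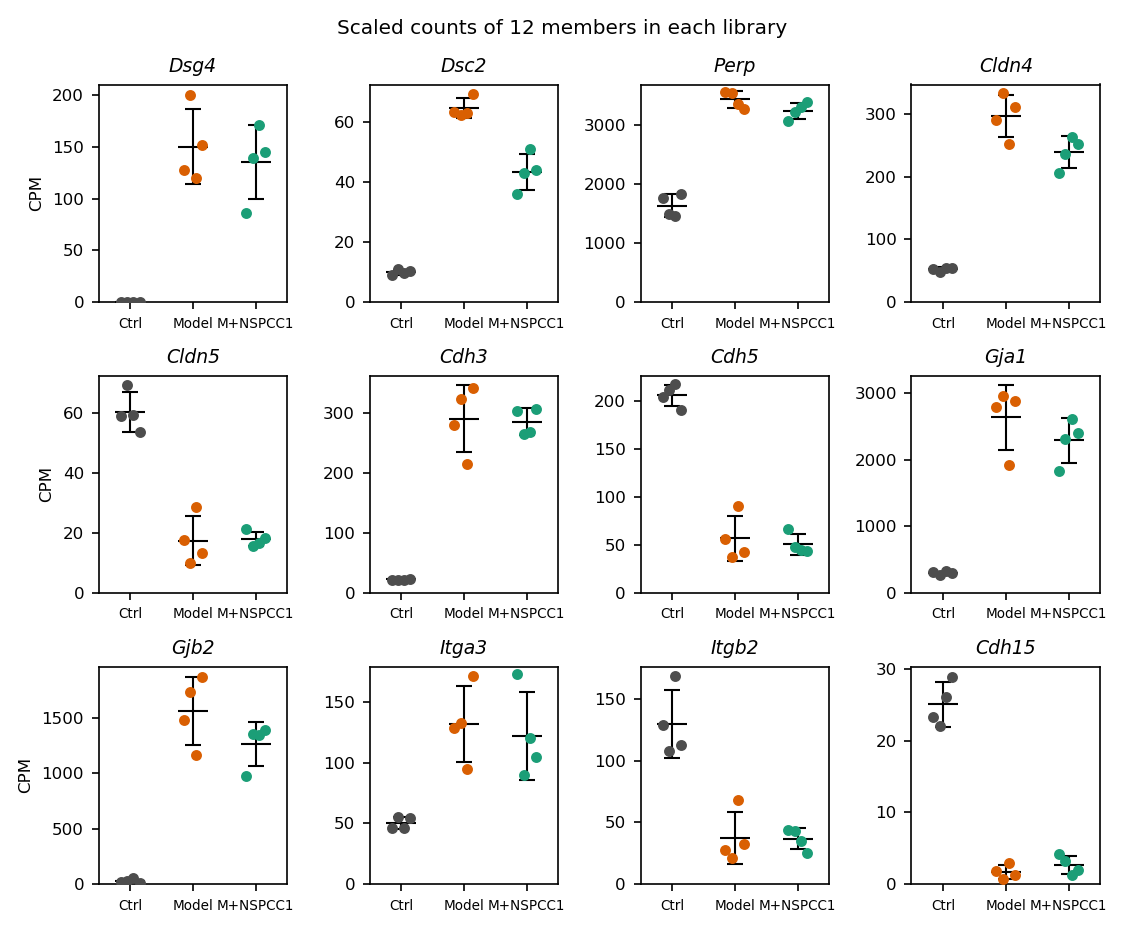
Scaled counts (CPM, vertical axis from 0) of 12 members in the 4 libraries of each group (points), with the mean and SD (bars). Dsg4, Dsc2, Perp, Cldn4, Cdh3, Gja1, Gjb2 and Itga3 are higher in all 8 libraries of the ageing model than in Ctrl, and Cldn5, Cdh5, Itgb2 and Cdh15 are lower.

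Connexins showed the steepest contrast within a family. Of 9 members, 5 rose and 4 fell. Gja1, the most widely expressed connexin of skin, was at 307.1, 273.9, 322.3 and 292 CPM in Ctrl. Model libraries held 2794, 2951, 1914 and 2879 CPM and M+NSPCC1 libraries 1830, 2303, 2614 and 2401 CPM. None of these 8 overlapped Ctrl, and the log2 fold change in Model against Ctrl was 3.14 (standard error 0.16, adjusted p = 4.68e-08).

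Gjb2, a connexin of hair follicle and of thickened or wounded epidermis, had 13.94, 22.75, 52.92 and 12.41 CPM in Ctrl and 1481, 1736, 1165 and 1870 CPM in Model libraries. Ctrl 03 was the highest of its group and still far below every Model library. The log2 fold change was 5.94 (standard error 0.46, adjusted p = 5.62e-07). Gjb6, which can pair with Gjb2 in the same channels, rose by 4.397, from 6.266 to 132.5 CPM. Gja3, best known from the lens, had no count in any Ctrl library and 34, 55.6, 35.62 and 39.89 CPM in Model, at least 505-fold higher (bound from 3 counts over the Ctrl group).

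Gja3, Gjb2 and Gjb6 are neighbours on chromosome 14. In the mm10 assembly Gja3 occupies 57034460 to 57058030, Gjb2 57098602 to 57104702 and Gjb6 57123301 to 57133611, with gaps of 40571 and 18598 bases between them. All 3 rose. Some other neighbouring members also rose together: Cldn4 and Cldn3 on chromosome 5 (39279 bases apart), Cdh3 and Cdh1 on chromosome 8, Cldn17 and Cldn8 on chromosome 16, and the desmogleins and desmocollins on chromosome 18. Joint rises have to be read against the 60.5% of all members that rose and the 15 of 15 desmosome genes. Not every pair of neighbours went the same way. On chromosome 18, for instance, Pcdh1 rose and Pcdh12 fell.

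Among the connexins that fell were those of vessel wall and Schwann cells. Gja4 and Gja5, the connexins of arterial endothelium, fell by 1.53 and 1.83 on the log2 scale. Gjc3, of Schwann cells, fell by 1.87. By FPKM the 9 connexins summed to 89.7 ± 8.23 in Ctrl and 1078 ± 216 in Model (SD, n = 4). Gja1 was the main member in both, with 62.3% and 51.8% of the sum, while Gjb2 went from 6.84% ± 4.33 to 41.0% ± 1.84 and Gja4 from 10.9% ± 1.02 to 0.381% ± 0.185.

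**Figure D3:**
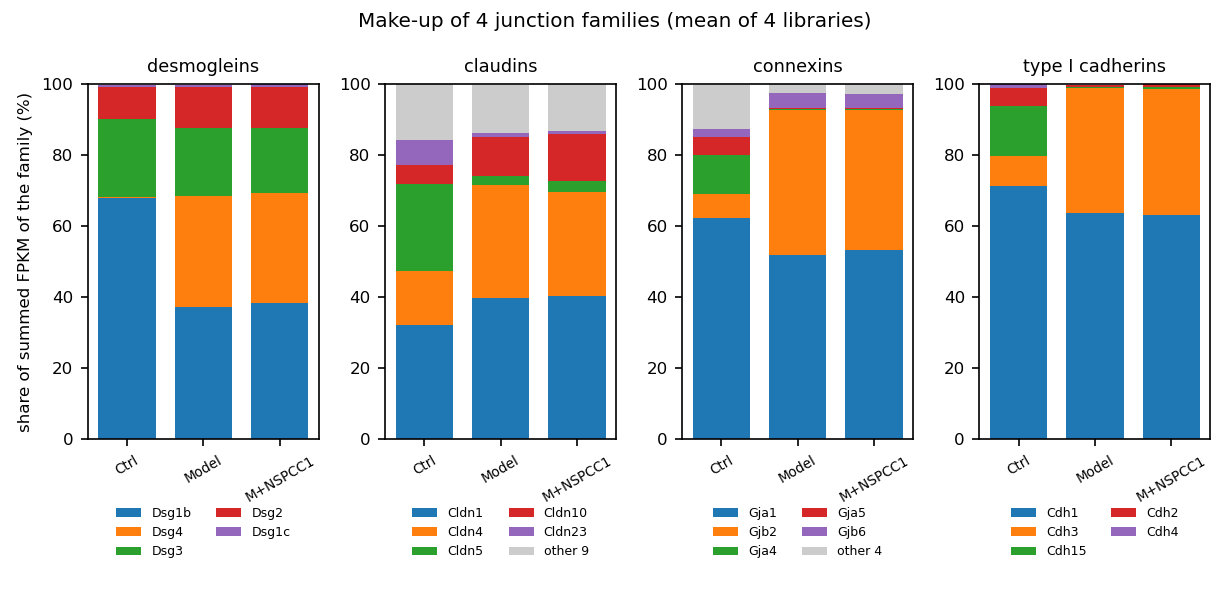
Mean share of the summed FPKM of a family's listed members (vertical axis, percent, n = 4 libraries) taken by each gene in Ctrl, Model and M+NSPCC1. The families are desmogleins, claudins, connexins and type I cadherins, and grey joins the other members. Dsg4, Cldn4, Gjb2 and Cdh3 take larger shares in both ageing groups than in Ctrl, and Cldn5, Gja4 and Cdh15 smaller ones.

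The stretches just upstream of the start sites of 5 of these genes are shown because their genes moved far and lie next to other members (Gjb2, Gjb6, Cldn4), or moved most in counts (Gja1) or against their family (Cldn5). Each line gives the last 200 bases before the annotated start, read 5′ to 3′ in the direction of the gene from the RefSeq promoter table of GRCm38.p6, the assembly called mm10. Capitals mark 5 motifs on either strand: AP-1 (letters TGANTCA), grainyhead-like (letters AACCNGTT), E-box (letters CAGGTG), GC box (letters GGGCGG) and the core promoter box with the letters TATAAA. None of the motifs overlaps another in these stretches. The positions are chr10:56377100-56377299 (+) for Gja1, chr14:57104703-57104902 (-) for Gjb2, chr14:57133612-57133811 (-) for Gjb6, chr5:134946935-134947134 (-) for Cldn4 and chr16:18776647-18776846 (+) for Cldn5.
Gja1: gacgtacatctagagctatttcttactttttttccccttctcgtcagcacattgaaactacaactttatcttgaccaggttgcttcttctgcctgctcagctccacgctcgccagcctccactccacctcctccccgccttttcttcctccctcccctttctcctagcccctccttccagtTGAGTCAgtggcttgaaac
Gjb2: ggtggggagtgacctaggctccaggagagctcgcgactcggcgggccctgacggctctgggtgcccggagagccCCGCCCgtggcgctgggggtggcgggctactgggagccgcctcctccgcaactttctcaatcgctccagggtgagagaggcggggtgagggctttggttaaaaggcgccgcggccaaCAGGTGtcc
Gjb6: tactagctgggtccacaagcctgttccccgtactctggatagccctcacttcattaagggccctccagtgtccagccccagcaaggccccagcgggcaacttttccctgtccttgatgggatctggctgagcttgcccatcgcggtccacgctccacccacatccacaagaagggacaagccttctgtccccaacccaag
Cldn4: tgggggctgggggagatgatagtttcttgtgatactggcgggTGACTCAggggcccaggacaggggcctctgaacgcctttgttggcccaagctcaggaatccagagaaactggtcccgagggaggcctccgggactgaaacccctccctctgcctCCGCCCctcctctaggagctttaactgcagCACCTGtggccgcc
Cldn5: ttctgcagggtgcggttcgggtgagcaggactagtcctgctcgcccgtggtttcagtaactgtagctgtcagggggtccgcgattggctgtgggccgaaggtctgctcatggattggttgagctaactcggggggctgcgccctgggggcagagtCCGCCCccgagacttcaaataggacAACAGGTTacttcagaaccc

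In these 5 stretches Gja1 holds the AP-1 letters from base -19 to -13 before the start and Cldn4 holds them from -158 to -152. Gjb2 has an E-box from -9 to -4 and Cldn4 from -14 to -9. Cldn5 has the grainyhead-like letters from -20 to -13, and a GC box stands in Gjb2, Cldn4 and Cldn5. Gjb6 has none of the 5 motifs in this stretch, but its longer window of 300 bases holds the grainyhead-like and E-box letters. The table held 63 windows of 300 bases (250 before to 50 after a start) for 47 members. The AP-1 letters were in 4 of these 63 windows, or 6.35%, against 7.81% of all 32851 windows. Those 4 belonged to Cldn4, Ctnnbip1, Gja1 and Itga3, which all rose, as did the genes of 41 of the 63 windows. The call for Ctnnbip1 was lost with DESeq2. The E-box was in 28.6% of member and 20.2% of all windows, the GC box in 55.6% and 35.7%, the core promoter box in 6.35% and 13.6%, and the grainyhead-like letters in 3.17% and 2.09%. Such matches are descriptions of letters and do not show binding.

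Most of the integrins listed fell. Itga6 and Itgb1 are not among them, so the class direction speaks only for the listed subunits, of which 4 are leukocyte integrins. Of 12 members 8 fell, 1 rose and 3 did not pass, and the median log2 fold change was -1.61 (-2.12 without Model 03). The leukocyte integrins went down together. Itgam, the alpha subunit of macrophages and neutrophils, had 268.5, 157.5, 272.4 and 174.3 CPM in Ctrl and 58.62, 35.22, 96.04 and 50.7 CPM in Model libraries, with no overlap, and fell by 1.86 on the log2 scale (standard error 0.33, adjusted p = 0.000256). Itgb2, its partner on leukocytes, fell by 1.80, and Itga4 and Itgb7, which form a pair on lymphocytes, by 2.13 and 1.42.

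The matrix receptors were divided. Itga3, the alpha subunit with which basal keratinocytes hold laminin, had 45.9, 55.34, 45.94 and 54.29 CPM in Ctrl and 128.5, 133, 94.95 and 171.6 CPM in Model libraries. It was the only integrin of the 12 to rise, with a log2 fold change of 1.39 (standard error 0.21, adjusted p = 8.96e-05). Itga11, a collagen receptor of fibroblasts, fell by 1.01, Itga7, the laminin receptor of muscle, by 1.93, and Itgb3 by 0.89. Itga2, a collagen receptor of keratinocytes, did not pass (log2 fold change 0.24; 95% interval -0.14 to 0.61; adjusted p = 0.203), nor did Itga8 (-2.25; adjusted p = 0.0943). The call for Itga8 depended on the fit: it passed with the replicate number as a block (-3.07; adjusted p = 0.0426), with only the 8 libraries compared (-2.24; adjusted p = 0.0407), without Model 04 (-3.29; adjusted p = 0.0441) and in limma, so that 9 integrins fell in those fits.

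The listed transcripts may not stand for the whole gene, and 2 integrins are described in detail. The limit holds for other members too. Tjp3, Cldn12, Pcdh1 and Itgb2, for instance, were each listed by 1 transcript, where RefSeq has 4, 8, 7 and 4. Their fold changes speak for the listed transcript. Itgb4, the beta subunit of hemidesmosomes, was listed by 1 transcript, while RefSeq has 8 for the gene. Its counts were not whole numbers, as estimates that divide reads between transcripts give. That transcript was at 11.61, 26.62, 43.48 and 21.8 CPM in Ctrl and at 0, 0, 3.175 and 0 CPM in Model libraries, and fell by 5.03 on the log2 scale (standard error 1.49, adjusted p = 0.0071), a value that speaks for this transcript and not for the whole gene.

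Itgb6, an epithelial integrin subunit induced in wounded skin, was the only member whose transcripts passed in opposite directions. The first of its 3 transcripts was at 18.25, 22.75, 16.21 and 14.89 CPM in Ctrl and at 0, 1.483, 0 and 1.305 CPM in Model, a log2 fold change of -4.63 (standard error 1.31, adjusted p = 0.00575 over all transcripts). The other 2 had no count in any Ctrl library and reached 4.806 and 13.54 CPM on average in Model (adjusted p = 0.00231 and 7.7e-05). Summed over transcripts the gene had 18.03 ± 3.44 CPM in Ctrl and 19.04 ± 9.73 in Model (SD, n = 4) and did not pass (log2 fold change 0.08; 95% interval -0.62 to 0.78), and the sign of that small difference turned with the scaling. Estimates for transcripts of 1 gene share reads, so that this exchange rests on how reads were divided.

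The remaining cadherins and protocadherins went both ways. Cdh6, a cadherin known from developing kidney, went from 3.981, 4.86, 3.328 and 3.562 CPM in Ctrl to 109.8, 154.1, 36.21 and 150.9 CPM in Model, where Model 03 was the lowest. Its log2 fold change was 4.84 (standard error 0.43, adjusted p = 1.51e-06). Cdh24 rose by 1.66. Cdh11 rose by 0.40 with groups that overlapped (adjusted p = 0.014), a call that was lost with DESeq2 (0.23; adjusted p = 0.148). Cdh13 (T-cadherin, of endothelium and smooth muscle) fell by 1.46, Cdh19, of Schwann cells, by 1.20 and Cdh9 by 1.49. Among protocadherins Pcdh7 rose by 1.49 and Pcdh1 by 0.99. Pcdh8 had no count in Ctrl and 5.563 CPM on average in Model, at least 68.0-fold higher on the same bound, while Pcdh12, of endothelium, fell by 1.77 and Pcdh18 by 1.58.

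The 4 genes that match by letters only were divided too. Itgb1bp2 (melusin), a muscle protein, fell by 3.43 on the log2 scale, from 159.7 to 14.85 CPM, and Itgb1bp1 fell by 1.04. Ctnnbl1 rose by 0.65. Ctnnbip1, an inhibitor of beta-catenin in the nucleus, rose by 0.25 (adjusted p = 0.00614), a call that did not survive scaling by DESeq2's size factors (0.08; adjusted p = 0.317).

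Members were also sorted by the cell type that textbooks give for them, with the results already known, so the counts are descriptions. For vessel endothelium (Cdh5, Cldn5, Gja4, Gja5 and Pcdh12) 5 of 5 fell, with a median log2 fold change of -1.79. For Schwann cells (Cldn19, Gjc3 and Cdh19) 3 of 3 fell (median -1.87), for skeletal muscle (Cdh15, Itga7 and Itgb1bp2) 3 of 3 (median -3.43) and for leukocytes (Itgam, Itgb2, Itga4 and Itgb7) 4 of 4 (median -1.83). Marker genes outside the member list moved alongside, and their part in these results was not tested. The summed CPM of 5 endothelial markers was 617 to 731 in Ctrl, 112 to 316 in Model and 174 to 205 in M+NSPCC1 libraries. For 3 Schwann cell markers it was 870 to 1136, 92.5 to 210 and 138 to 241, for 8 skeletal muscle markers 58504 to 61796, 3552 to 10706 and 7648 to 11463, and for 7 leukocyte markers 4980 to 6690, 1004 to 3382 and 1274 to 1820. All 23 of these markers fell in Model against Ctrl.

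Markers of other skin cells moved as well. The 2 fibroblast markers measured, Dcn and Lum, summed to 2758 to 3119 CPM in Ctrl, 831 to 2219 in Model and 1189 to 1611 in M+NSPCC1 libraries. Among the members Itga11 fell too, while Cdh11 rose by 0.40, a call lost with DESeq2. The sum of 4 markers of smooth muscle and pericytes was 845 to 1030, 201 to 436 and 306 to 456 CPM, alongside Cdh13, and that of 2 adipocyte markers 59.2 to 79.9, 7.78 to 21.5 and 12.2 to 16.6 CPM. All 8 of these markers fell in Model against Ctrl. The 5 melanocyte markers all rose, from 14.4 to 47.3 CPM in Ctrl to 873 to 2561 in Model and 1600 to 2595 in M+NSPCC1 libraries. The part of these cells in the members' values was not tested.

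Epithelial markers moved in more than 1 direction. The summed CPM of 7 markers of the growing hair follicle (such as Krt25, Krt71 and Msx2) was 3.54 to 214 in Ctrl, 23261 to 36538 in Model and 18198 to 31450 in M+NSPCC1 libraries, and all 7 rose. Both basal markers rose, whereas of 3 suprabasal markers (Krt10, Krtdap and Flg) 2 fell and 1 rose, with sums of 5120 to 7088, 1488 to 3228 and 2076 to 3405 CPM. No measured marker of these lists was at 0 throughout a group. The part of the follicle in the rise of desmosome, connexin and cadherin genes was not tested.

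Genes that work with the members were read from lists of partners. Of 23 junction plaque genes 18 were tested, 12 rose and 6 fell. Prkci and Pard6b, 2 parts of the complex that sets up the apical pole of epithelial cells, rose by 1.25 and 2.04 on the log2 scale. Jam3, a junctional adhesion molecule, fell by 1.49 and Cgnl1, a cingulin relative, by 0.54. Of 23 genes of integrin adhesion sites 16 were tested, 5 rose and 10 fell. Fermt1, the kindlin of keratinocytes, rose by 2.31 while its relative Fermt2 fell by 1.49; the actin linkers Actn1 and Tns1 went up by 1.46 and down by 1.47 in turn. Of 7 hemidesmosome genes 4 were tested: Lama3, a laminin chain, rose by 0.80, and Dst and Cd151 fell by 1.78 and 1.12.

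Whether the extract shifted these genes was read from M+NSPCC1 against Model. No member passed, as in all 7638 genes tested (0% called by edgeR), and the smallest adjusted p among members was 0.248, for Dsc2. At an unadjusted p under 0.05 there were 12 members, 11 lower and 1 higher, or 14.8% of the 81, where 6.57% of all genes were called. DESeq2 called 2 members, Dsc2 and Tjp1, both lower, where it called 0.771% of all genes lower. The 4 and 4 libraries did not overlap for 10 members (9 lower, 1 higher), or 12.3%, against 4.19% of all genes.

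Dsc2, Tjp1, Ctnnbip1 and Cldn4 were among the 5 members with the smallest p. Dsc2 had 36.03, 42.93, 50.92 and 43.86 CPM in M+NSPCC1, all below the lowest Model library at 62.46 and above the highest Ctrl library at 10.82. Its log2 fold change against Model was -0.57 (standard error 0.11, 95% interval -0.81 to -0.34), with an adjusted p of 0.248 by edgeR and 0.000807 by DESeq2. Tjp1 had 94.7, 90.03, 104.6 and 109.6 CPM in M+NSPCC1 and 124.8, 136.9, 114.8 and 138.9 CPM in Model, again with no overlap. Its log2 fold change was -0.37 (standard error 0.09, adjusted p = 0.36 by edgeR and 0.00989 by DESeq2).

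Cldn4 and Ctnnbip1 did not pass with either tool. Cldn4 was at 205.7 to 263.6 CPM in M+NSPCC1 and 252.6 to 332.7 in Model (log2 fold change -0.31; adjusted p = 0.605 by edgeR), ranges that overlap. Ctnnbip1 was the member on the higher side, at 103.3 to 117.7 against 84.94 to 96.84 CPM (0.22; adjusted p = 0.605).

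The members as a whole lay slightly under Model. Of the 81, 55 (67.9%) had a log2 fold change below 0, against 48.5% of all genes, and the median was -0.093 against 0.005 over all genes. Desmosome genes had a median of -0.14 (-0.19 to -0.12 with single libraries left out) and 13 of 15 below 0. Tight junction genes had -0.11 (-0.23 to -0.10) and 13 of 18 below 0, and connexins -0.20 (-0.28 to -0.11) and 5 of 9. The lean was not shared evenly by the classes. Adherens junction genes had -0.026 (-0.081 to 0.035) and 7 of 12 below 0, and protocadherins -0.122 (-0.237 to 0.009) and 3 of 5. Integrins had -0.07 and 9 of 12 below 0, and their median became 0.25 without Model 03. Intervals bound what these data allow: for 62 members the 95% interval lay within a 2-fold change in either direction, and for 35 within 1.5-fold. Those of Perp (-0.29 to 0.13), Cdh1 (-0.27 to 0.18) and Ctnnb1 (-0.19 to 0.20) were among the narrow ones, and those of Gjb2 (-1.12 to 0.51) and Itgb4 (-2.31 to 4.15) among the wide ones.

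**Figure D4:**
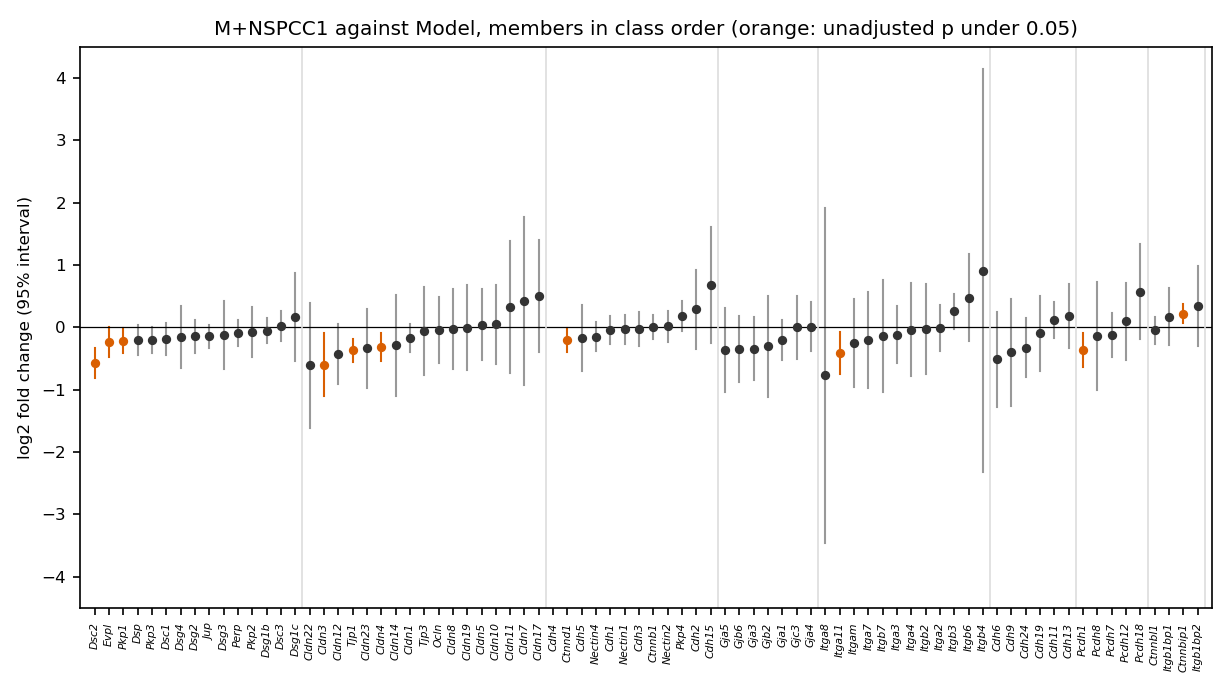
Log2 fold change in M+NSPCC1 against Model (vertical axis) with its 95% interval for the members described, in class order (horizontal axis), desmosome genes at the left and letter matches at the right; Cdh4, at 0 in every M+NSPCC1 library, has no point. Most intervals span 0, and of the plotted members with an unadjusted p under 0.05 (orange) only Ctnnbip1 lies above it.

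Set against Ctrl, the M+NSPCC1 group had 49 members that rose, 30 that fell and 2 (Itga2 and Itgb6) that did not pass, where 93.2% of all genes were called, 50.1% higher and 43.1% lower. This comparison shares the Ctrl libraries with that of Model, so their values are given side by side and agreement between them is no separate result. Dsg4 stood at a log2 fold change of 9.74 in Model and 9.59 in M+NSPCC1, Gjb2 at 5.94 and 5.63, Gja1 at 3.14 and 2.94, Cdh3 at 3.69 and 3.67, Cldn4 at 2.498 and 2.188 and Dsc2 at 2.70 and 2.13. On the lower side Cdh5 stood at -1.86 and -2.02, Cldn5 at -1.79 and -1.75, Cdh15 at -3.91 and -3.24 and Itgam at -1.86 and -2.11. The 15 members sorted to vessel, nerve, muscle and leukocytes fell here as well, 15 of 15.

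Only Cdh4 and Itga8 had a different call in the 2 comparisons, and that of Itga8 depended on the fit in both. Cdh4 had no count in any M+NSPCC1 library and was at least 62.7-fold lower than in Ctrl (bound from 3 counts over the M+NSPCC1 group, edgeR adjusted p = 0.00397). In the Model libraries it was at 3.598, 0, 2.381 and 0 CPM, so no bound on a difference from Model follows. Cdh4 did not pass in M+NSPCC1 against Model (edgeR adjusted p = 0.605). Itga8, an integrin of smooth muscle and stromal cells, had 1.558, 0, 0 and 4.35 CPM in M+NSPCC1 and 6.655 to 16.59 CPM in Ctrl. Its log2 fold change was -3.02 (standard error 1.26, adjusted p = 0.037), a call that was lost when any of 6 single libraries was left out (adjusted p from 0.0617 to 0.0764).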

How the data were processed

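Messenger RNA of mouse skin was sequenced in 12 libraries, 4 in each of the groups Ctrl, Model and M+NSPCC1 that their titles name. The authors deposited estimated counts and FPKM values per transcript (the latter scaled for library depth and for length). HISAT2 2.2.1, RSEM 1.3.1, DESeq2 1.34.0 and the build mm10 are named in the submitters' processing notes, without their roles. The sources used here do not say how the 10720 transcripts of the tables were chosen.

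Per gene, the counts of its transcripts were added, rounded and tested with edgeR 4.0.16 in R 4.3.3 (TMM factors, default expression filter, all 12 libraries in one fit with a coefficient per group, no covariate). The threshold was a Benjamini-Hochberg adjusted p under 0.05 over all 7638 genes. Log2 fold changes above 0 mean a higher level in the first group of a comparison. Standard errors and 95% intervals come from the same fit. FPKM served only to compare levels between genes and in limma 3.58.1 as an alternative, on log2(FPKM + 1) or log2(FPKM + 0.1), which understates the change of low genes. The deposited counts of 48 members were not whole numbers (tolerance 0.011 per transcript summed), and their split between transcripts is an estimate; 54 members were listed by 1 transcript. A bound for a gene at 0 is 3 counts over the 4 libraries of the group and covers counting error only. Only the edgeR fit was tried on simulated counts, in which few genes changed, as many up as down. Most genes differ from Ctrl in these data, so the simulation cannot test the scaling here.

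The members and lists were chosen with earlier results of these data known. Named members were the 3 with the smallest p per class and direction among those with at least 1 CPM and no overlap. A fixed set of 38 was named too, of which 32 were measured. The others of that set (such as Itga6 and Itgb1) are not among the 81 members. In M+NSPCC1 against Model the 5 smallest p were named, and against Ctrl the members with a different call in the 2 comparisons. Most of the remaining members are also given, added after their values were seen. Some members are counted but not reported here by name. Coordinates and promoter windows come from RefSeq tables of GRCm38.p6, in which all 81 members matched by gene ID and 47 had a window. As alternatives, a block for the replicate number, each library left out in turn, single transcripts, limma, the compared 8 libraries alone, no filter or one of 1 CPM in 4 libraries, size factors from DESeq2 and DESeq2 1.42.0 itself were tried.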

Additional observations from a re-analysis of the deposited data

Results flagged for a closer look

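In 9 of 180 groups of 4 libraries (60 named members in 3 groups each) 1 library stood apart from the other 3 by Dixon's criterion, and chance alone gives about 1 in 20. M+NSPCC1 01 was that library for 3 members. It had 162.8 CPM of Dsg3 against 73.62 to 84.62 in the other 3, 972 CPM of Gjb2 against 1345 to 1391, and 18.98 CPM of Ocln against 33.56 to 33.92. The same library had the lowest summed CPM of the growing follicle markers in its group (18198 against 29307 to 31450) and the highest of the basal markers (5075 against 3135 to 3855), and the part of these in its values was not tested. Model 03 had 1914 CPM of Gja1 against 2794 to 2951. Its follicle marker sum was also the lowest of its group (23261 against 35495 to 36538 CPM), and the part of the follicle in its values was not tested. Model 03 also had 3.175 CPM of Itgb4 where the other 3 had 0. For Itgb4 the library M+NSPCC1 02, with 5.378 CPM, also stood apart from the other 3 at 0 to 0.444. Model 04 had 69.53 CPM of Dsc2 against 62.46 to 63.26, Ctrl 04 had 23.85 CPM of Cdh3 against 21.98 to 22.01, and Ctrl 03 had 2.362 CPM of Cdh24 against 4.425 to 4.749. None of these values closed the gap between Ctrl and the 8 libraries of the ageing model for its gene.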

How the results depend on the processing

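Under the filters, scalings, DESeq2, limma and single libraries left out, 47 to 50 members rose and 27 to 29 fell in Model against Ctrl, and 49 to 51 rose and 27 to 30 fell in M+NSPCC1 against Ctrl. Taken by single transcripts, 78 of 117 tested rose in each of these comparisons. Of the 33 members with whole sums, an alternative chosen after seeing the data, 21 rose and 11 fell in both; the lower numbers follow from the fewer members. In M+NSPCC1 against Model the only calls came from DESeq2, with 2 lower. Itgb6 changed sign in Model against Ctrl, with -0.087 with DESeq2's size factors, -0.086 with DESeq2 and -0.008 with the replicate block, and from -0.286 to 0.323 with single libraries left out, the lowest without Model 01; the cause was not tested. The calls for Ctnnbip1 (0.08; adjusted p = 0.307) and Cdh11 (0.23; adjusted p = 0.148) were lost with DESeq2, and with its size factors, in Model against Ctrl. Itga2 passed in limma (adjusted p from 0.0282 to 0.0418 in Model against Ctrl), and Itgb6 passed in M+NSPCC1 against Ctrl with only the 8 libraries compared (adjusted p = 0.0151) and in limma. Deviations of same-numbered libraries from their group means had small correlations (from -0.162 to 0.119). With 4 libraries per group this check can miss a shared batch, so whether same-numbered samples are paired stays unknown. With the replicate block 49 rose and 29 fell in Model against Ctrl, 49 and 30 in M+NSPCC1 against Ctrl, and 0 in M+NSPCC1 against Model. Low members such as Cldn17, Pcdh8, Cdh4 and Itga8 rest on few counts.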
